A study of Mus musculus with 2 samples.

Results

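The genes described here are 40 genes of mitosis and the spindle, listed by symbol and found among 32285 features in 2 single-cell libraries of the mouse uterus at gestational day 3.5. They comprise 6 genes for cyclins, Cdk1 and its regulators, 7 for mitotic kinases and the spindle checkpoint, 2 for partners of the anaphase-promoting complex, 5 for kinetochore and centromere proteins, 9 for spindle motors and microtubule proteins, 6 for the midzone and cytokinesis, and 5 for chromosome structure. The control library came from uterus of Mig-6f/f females, in which the gene Errfi1 (encoding Mig-6) is flanked by loxP sites and no Cre is present. The other library, labelled knockout, came from Pgrcre/+Mig-6f/f females, which carry the same floxed alleles and a Cre inserted at the progesterone receptor gene (Pgr), so that deletion is limited to cells that have used Pgr. There was 1 library per genotype, and the sources used here do not give how many animals each library holds. No difference below therefore has a replicate check, no test between genotypes is possible, and each 95% interval covers counting error only.

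Mitosis divides replicated chromosomes between daughter cells. Cdk1 with its B cyclins drives entry, the kinetochore proteins attach chromosomes to spindle microtubules, the checkpoint kinases delay separation until attachment is complete, and the anaphase-promoting complex then marks cyclins and securin for destruction, after which the midzone and contractile ring part the cell. Most of these genes are transcribed only late in the cell cycle, through promoters bound by the DREAM and MuvB complexes, which makes their RNA a mark of cells in G2 and M phase. In the mouse uterus before implantation, progesterone ends the estrogen-driven division of luminal epithelium while the stroma begins to divide, and Mig-6, an inhibitor of the EGF receptor, is a known target of the progesterone receptor.

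Barcodes were sorted by gates on summed marker UMIs (unique molecular identifiers, each counting 1 captured RNA molecule) per 10000 UMIs of the barcode. Luminal barcodes had at least 10 UMIs of Epcam, Krt8, Krt18 and Cldn7 and under 10 of Prss29, Prss28, Spink1 and Cxcl15, glandular barcodes had at least 10 of each set, and stromal barcodes had at least 10 of Dcn, Col1a2 and Col3a1. The luminal class held 620 control barcodes and 1321 of the library labelled knockout, with median UMI totals of 12074 and 9845. The stromal class held 3221 and 1049 (medians 8889 and 3637), the glandular class 102 and 98 (medians 10679.5 and 5870.5), and the remaining barcodes 334 and 404 (medians 5774 and 2050.5). Outside the gates, 5 of 5 epithelial markers (Krt7, Krt19, Wfdc2, Cdh1, Cldn4) summed to 6715 and 8578 CPM (counts per 1e6 UMIs of the class) in luminal barcodes against 10.4 and 55.1 CPM in stromal ones. The gland markers Foxa2, Ttr and Sult1e1 summed to 137 and 57.3 CPM in the glandular class, with 1 of the 3 at 0 in the control. The luminal markers Lgals3, Wnt7a and Calb1 summed to 456 and 65.7 CPM in luminal barcodes. In leukocytes, where Lgals3 is also expressed, the same markers summed to 440.4 and 588 CPM. Luminal therefore names the gate, and the part of these markers in the results was not tested. Errfi1 was near equal in luminal barcodes (540.4 and 509 CPM) and higher, not lower, in stromal barcodes of the library labelled knockout (197 and 733 CPM). It was lower in glandular barcodes (833 and 589.6 CPM, a ratio of 0.707 (0.631 to 0.792)) and higher in the remaining barcodes (120.3 and 456 CPM, a ratio of 3.79 (3.24 to 4.43)). The sources used here do not say which part of Errfi1 is deleted, and UMIs from outside that part would still be counted. These Errfi1 levels therefore cannot check the label in any class, and the label is used only as a name.

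Luminal barcodes held less RNA of these genes in the library labelled knockout. Summed over the 40 genes, luminal barcodes held 297 CPM in the control (2776 UMIs) and 124 CPM in the library labelled knockout (2073 UMIs), 2.39-fold lower (2.26 to 2.53). The difference was wide across functions: Cdk1, the topoisomerase Top2a, the condensin subunit Smc2, the survivin gene Birc5, the ubiquitin-conjugating enzyme gene Ube2c and the spindle assembly factor Tpx2 were each more than 5-fold lower. Stromal barcodes held 253 and 149 CPM (7454 and 585 UMIs), 1.70-fold lower (1.56 to 1.85), with a mixed pattern among the members. Glandular barcodes held 86.9 and 92.8 CPM from 110 and 68 UMIs, a ratio of 1.07 (0.777 to 1.46). The remaining barcodes held 1435 and 926 CPM, 1.55-fold lower (1.44 to 1.67). Within the remaining barcodes, leukocytes had the highest sum in both libraries. Leukocyte markers, of the cells richest in this RNA, summed to 8.87 and 13.1 CPM in luminal barcodes, with 5 of 6 detected in each library, against 7447 and 7927 CPM in leukocytes. A class with fewer dividing cells and a class with less of this RNA per dividing cell give the same sum.

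**Figure D1:**
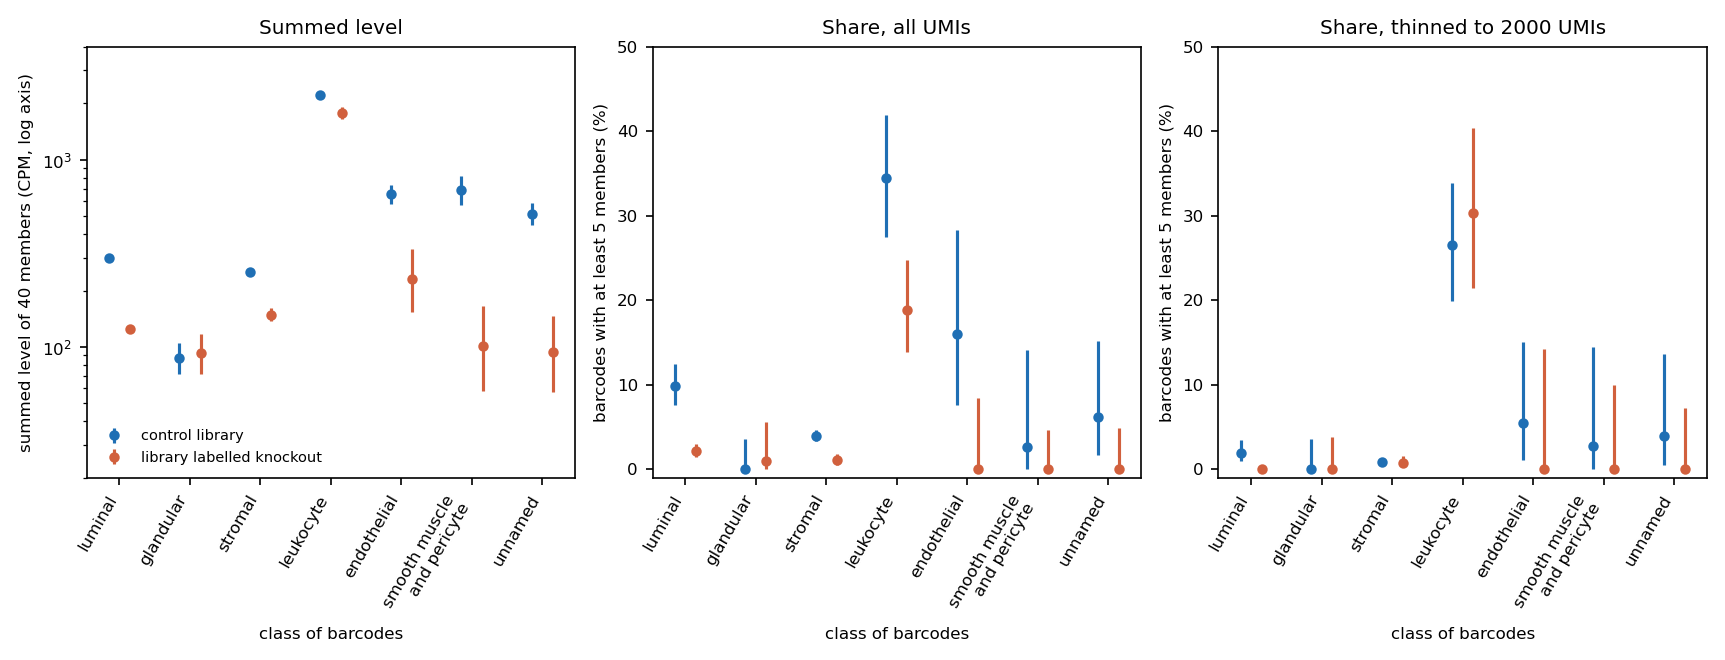
Summed level of the 40 genes in CPM (left, log axis) and percent of barcodes with a UMI of at least 5 of them, from all UMIs (middle) and after thinning each barcode to 2000 UMIs (right), by class and library. Points are 1 library each and bars are 95% intervals of counting error. The luminal difference of 297 against 124 CPM keeps its direction after thinning, while the stromal and leukocyte shares of the 2 libraries come close together.

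Promoters of 34 of the 40 genes were found in the RefSeq promoter table (build GRCm38.p6). The motif TTTGAA, known as the cell cycle homology region and bound by MuvB complexes, was searched on both strands (TTCAAA on the other) in the 300 bases from 250 before to 50 after each start. It was present in 26 of 34 members (76.5%), against 18.1% of 27025 promoters of the table and 16.5% of 17492 coding ones. Within the 250 bases before the start alone, it was present in 12 of 34 (35.3%), against 16.3% of promoters of the table. CCAAT (read as ATTGG on the other strand), the site of the factor NF-Y, was present in 26 of 34 (76.5%) against 37.9%, and at least 2 copies of it in 16 (47.1%) against 12.2%. With the variant TTTAAA counted too, a motif of this kind together with CCAAT was present in 24 of 34 (70.6%) against 10.9%. In the 250 bases before the start this pair was present in 15 (44.1%) against 9.0%. Matches of TTTGAA and CCAAT were counted separately, whether or not they overlapped. These are matches of letters, and binding was not measured. Of the members that hold both motifs in the 150 bases before the start, the 6 with the most UMIs over both libraries were picked. Their 150 bases, outside the transcript, are shown. They are written 5′ to 3′ on the strand of the gene, with both motifs in capitals in either orientation. The stretch for Smc2 is at chr4:52439071-52439220, plus strand. That of Top2a is at chr11:99024190-99024339, minus strand. That of Ube2c is at chr2:164769779-164769928, plus strand. The stretch for Cdk1 is at chr10:69352913-69353062, minus strand. That of Mki67 is at chr7:135716380-135716529, minus strand. That of Cdc20 is at chr4:118437344-118437493, minus strand.
Smc2: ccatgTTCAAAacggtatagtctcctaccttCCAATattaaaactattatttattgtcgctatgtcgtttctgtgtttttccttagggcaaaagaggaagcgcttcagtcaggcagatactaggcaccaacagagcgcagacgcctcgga
Top2a: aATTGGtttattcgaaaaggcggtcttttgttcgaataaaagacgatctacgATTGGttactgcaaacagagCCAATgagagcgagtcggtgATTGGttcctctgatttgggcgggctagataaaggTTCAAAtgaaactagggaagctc
Ube2c: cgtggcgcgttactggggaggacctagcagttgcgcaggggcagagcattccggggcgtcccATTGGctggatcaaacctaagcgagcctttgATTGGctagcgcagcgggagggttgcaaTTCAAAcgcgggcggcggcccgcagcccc
Cdk1: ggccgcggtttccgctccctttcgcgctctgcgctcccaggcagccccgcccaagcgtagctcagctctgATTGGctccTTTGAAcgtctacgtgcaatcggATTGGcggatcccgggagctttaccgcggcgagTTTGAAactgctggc
Mki67: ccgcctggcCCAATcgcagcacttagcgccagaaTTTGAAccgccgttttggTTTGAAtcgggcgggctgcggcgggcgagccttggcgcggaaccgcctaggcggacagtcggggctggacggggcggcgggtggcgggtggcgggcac
Cdc20: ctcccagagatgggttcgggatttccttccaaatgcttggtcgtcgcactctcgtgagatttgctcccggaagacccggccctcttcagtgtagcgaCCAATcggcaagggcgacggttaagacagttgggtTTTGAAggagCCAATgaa

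In Top2a, Ube2c, Cdk1 and Cdc20 the TTTGAA motif nearest to the start lay 23, 29, 15 and 18 bases before it, with CCAAT motifs further upstream, or on both sides of it in Cdc20. The motif lay 98 bases before the start in Mki67 and 145 in Smc2. Cks2, Bub1, Nuf2, Nusap1 and Tacc3 held neither TTTGAA nor TTTAAA in the window, and among these Cks2 and Nusap1 were not 2-fold lower in luminal barcodes while Bub1 and Tacc3 were and Nuf2 had too few UMIs to count.

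Per gene in luminal barcodes, 33 of the 40 members had at least 20 UMIs over both libraries. Of these 33, 25 were at least 2-fold lower in CPM in the library labelled knockout, 0 were at least 2-fold higher and 8 lay between, whereas 14.7% of the 13092 genes measured with the same minimum were lower by this rule and 5.64% were higher. The median log2 ratio was -2.35 over these members and -0.16 over all genes measured. Its size depended on depth and on the minimum: it was -1.06 over the 8 members measured after thinning to 2000 UMIs, with 4 at least 2-fold lower against 10.1% of all genes, and -1.35 over the 13 members with at least 100 UMIs. A minimum summed over both libraries admits genes mainly through the library where they are high, so the count was also taken over 40 members with any UMI, of which 32 were at least 2-fold lower, against 23.6% of all genes with any UMI. The whole 95% interval lay below 1 for 28 of the 33, against 38.8% of all genes, and above 1 for 1, Kif23, against 19.5%.

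**Figure D2:**
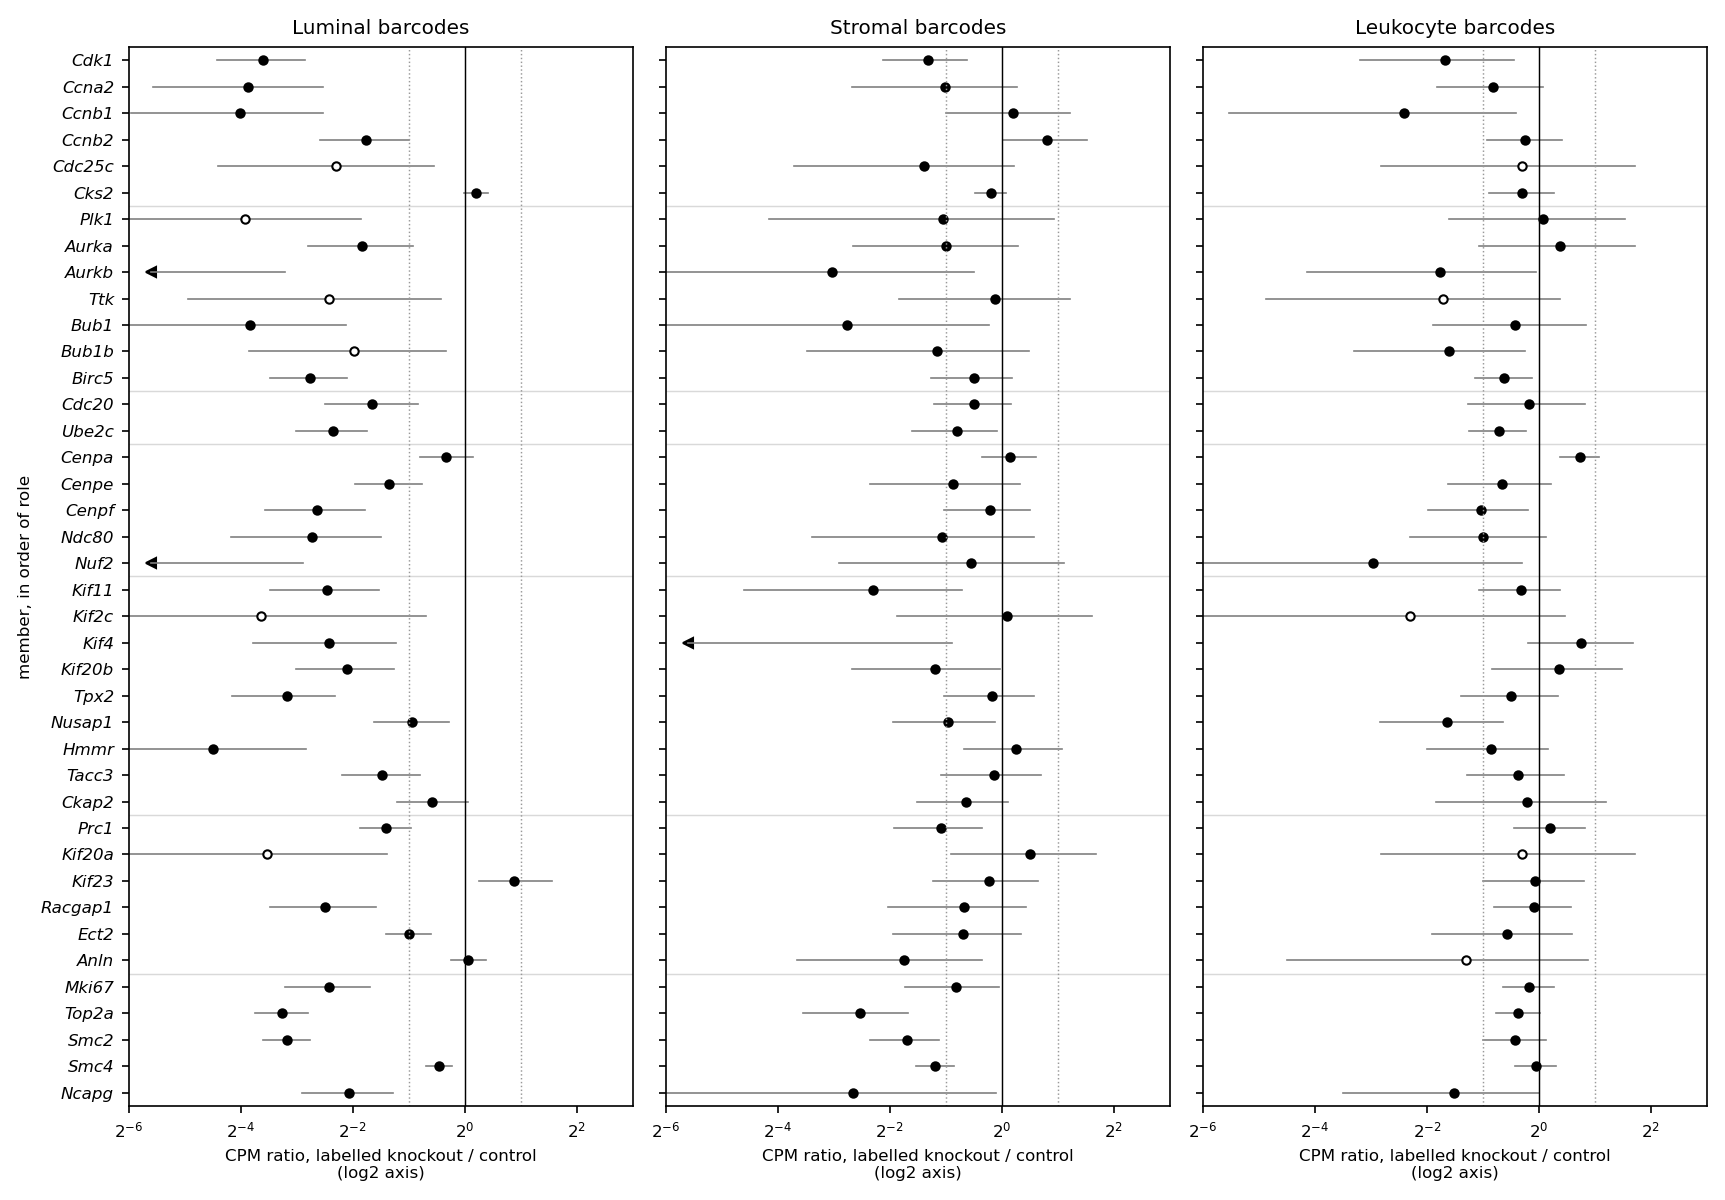
CPM ratio of the library labelled knockout over the control for each member (log2 axis) in luminal, stromal and leukocyte barcodes, in order of role with grey lines between roles. Points are ratios of 1 library over 1 library, lines are 95% intervals of counting error cut at the left edge, open points have under 20 UMIs, arrows mark members at 0 UMIs in the library labelled knockout, and dotted lines mark 2-fold. Most luminal points lie left of the 2-fold line, with Cks2, Anln and Kif23 at 1.14, 1.04 and 1.85, while stromal and leukocyte points lie nearer to 1.

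Among cyclins, Cdk1 and its regulators, Cdk1, the kinase that drives entry into mitosis, had 12.3 CPM in control barcodes against 1.02 CPM in those labelled knockout in luminal barcodes (115 and 17 UMIs), 12.1-fold lower (7.22 to 21.4). The B cyclin gene Ccnb2, a partner of Cdk1, had 4.49 and 1.32 CPM, 3.41-fold lower (1.99 to 5.99). Ccna2 (cyclin A2) and Ccnb1 (cyclin B1) had 41 and 5 UMIs and 36 and 4 UMIs, ratios of 0.0683 (0.0211 to 0.173) and 0.0623 (0.0161 to 0.174). Cks2, a small subunit that docks on Cdk1, did not follow them. It stood at 29.7 CPM in control barcodes against 34.0 CPM in those labelled knockout (278 and 568 UMIs), a ratio of 1.14 (0.990 to 1.33), so that the interval included 1. The phosphatase gene Cdc25c, which activates Cdk1, had only 11 and 4 UMIs, a ratio of 0.204 (0.0473 to 0.688).

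The mitotic kinases and checkpoint genes were lower as a group: they summed to 21.9 CPM in control barcodes against 3.18 CPM in those labelled knockout. Birc5, the survivin subunit of the chromosomal passenger complex, had 9.73 and 1.44 CPM (91 and 24 UMIs), 6.77-fold lower (4.28 to 11.1). Aurka, the kinase of spindle poles, had 3.42 and 0.959 CPM and was 3.57-fold lower (1.90 to 6.96). Aurkb, the kinase of the passenger complex, had 21 and 0 UMIs, and was at least 12.5-fold lower when the 0 is read as a limit of 3 UMIs. Every luminal barcode with a UMI of Aurkb was thus in the control. The polo-like kinase gene Plk1 had 17 and 2 UMIs, the checkpoint kinase genes Ttk, Bub1 and Bub1b 9 and 3 UMIs, 24 and 3 UMIs, and 11 and 5 UMIs, all with intervals below 1.

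Both partners of the anaphase-promoting complex were lower. Ube2c, its ubiquitin-conjugating enzyme, had 9.19 and 1.80 CPM (86 and 30 UMIs), 5.12-fold lower (3.34 to 8.03), and Cdc20, its activator, had 3.96 and 1.26 CPM, 3.14-fold lower (1.79 to 5.65). The kinetochore group was split. Cenpf and Cenpe, a kinetochore protein of G2 and M phase and a kinetochore motor, had 5.56 and 0.899 CPM and 6.41 and 2.52 CPM, 6.19-fold lower (3.43 to 11.8) and 2.55-fold lower (1.69 to 3.88). Ndc80 and Nuf2, both of the microtubule-binding Ndc80 complex, had 26 and 7 UMIs and 17 and 0 UMIs, the second at least 10.1-fold lower by the limit of 3 UMIs. Cenpa, the histone H3 variant of centromeres, stood apart with 7.16 and 5.69 CPM (67 and 95 UMIs), a ratio of 0.795 (0.575 to 1.10) whose interval included 1.

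Of the 9 spindle motor and microtubule genes, 8 had at least 20 luminal UMIs, 6 of these were at least 2-fold lower, and the sum was 36.9 and 10.3 CPM. Tpx2, which activates Aurka on the spindle, had 7.06 and 0.779 CPM (66 and 13 UMIs), 9.06-fold lower (4.95 to 17.9). Nusap1, a microtubule-bundling protein gene, had 4.38 and 2.28 CPM, 1.93-fold lower (1.21 to 3.08), and Ckap2, another microtubule-associated protein gene, had 4.38 and 2.94 CPM, a ratio of 0.670 (0.433 to 1.04). Hmmr, encoding a spindle protein that also binds hyaluronan, had 38 and 3 UMIs, a ratio of 0.0442 (0.00874 to 0.139). The motor genes Kif11, Kif4, Kif20b and Kif2c and the spindle adaptor gene Tacc3 had ratios of 0.182, 0.187, 0.232, 0.0801 and 0.358, each with an interval below 1.

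Genes of the midzone and cytokinesis behaved least alike. Prc1, which bundles midzone microtubules, had 11.1 and 4.19 CPM (104 and 70 UMIs), 2.65-fold lower (1.94 to 3.64). Ect2, which activates RhoA at the cleavage site, had 12.0 and 5.99 CPM (112 and 100 UMIs), just inside the 2-fold limit. Anln, the anillin scaffold of the contractile ring, had 14.0 CPM in control barcodes against 14.6 CPM in those labelled knockout (131 and 244 UMIs), a ratio of 1.04 (0.841 to 1.30). Kif23, the motor subunit of centralspindlin, went the other way with 2.89 and 5.33 CPM (27 and 89 UMIs), a ratio of 1.85 (1.19 to 2.96). Its partner in centralspindlin, Racgap1, had 4.70 and 0.839 CPM (44 and 14 UMIs), a ratio of 0.178 (0.0902 to 0.332). The subunits of this complex therefore stood on opposite sides of 1 in the same barcodes. Kif20a, a midzone motor gene, had 13 and 2 UMIs.

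Chromosome structure genes differed in size but not in direction. Smc2, a subunit shared by the condensins, had 32.4 CPM in control barcodes against 3.59 CPM in those labelled knockout (303 and 60 UMIs), 9.01-fold lower (6.81 to 12.1). Top2a, the topoisomerase of dividing cells, had 25.8 and 2.70 CPM (241 and 45 UMIs), 9.56-fold lower (6.93 to 13.4). Smc4, the condensin partner of Smc2, had 29.2 and 21.1 CPM (273 and 353 UMIs), only 1.38-fold lower (1.17 to 1.62). The condensin I subunit gene Ncapg had 5.02 and 1.20 CPM and Mki67, the proliferation marker that coats mitotic chromosomes, 6.74 and 1.26 CPM, ratios of 0.238 (0.134 to 0.410) and 0.187 (0.108 to 0.310). A UMI of Smc2 was found in 26.9% of control luminal barcodes and 4.31% of those labelled knockout, and in 5.92% and 0.863% after each barcode was thinned to 2000 UMIs. For Cks2 the shares were 26.1% and 30.7%, and 5.26% and 6.20% after thinning. No class here is known to lack these genes. In glandular barcodes, the class with the lowest control sum, a UMI of Smc2 was found in 7.84% and 0%, and of Cks2 in 10.8% and 10.2%.

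Luminal UMIs of these genes were gathered in few control barcodes. A UMI of at least 5 of the 40 genes was found in 61 of 620 (9.84%, 7.61% to 12.5%) control luminal barcodes and in 28 of 1321 (2.12%, 1.41% to 3.05%) of the library labelled knockout. After thinning to 2000 UMIs the counts were 12 of 608 (1.97%, 1.02% to 3.42%) and 0 of 1274, which allows a share of up to 0.235% by 3 counts of the total (0.289% by the exact interval). In glandular barcodes, 0 of 102 and 1 of 98 passed. The 61 control luminal barcodes held 66.9% of the luminal list UMIs, at 1185 CPM, and the 28 labelled knockout held 15.2%, at 473 CPM. The 10 control barcodes with the most list UMIs held 42.0% of them (the highest 215), and the 10 labelled knockout held 10.1% (the highest 55). Outside the barcodes with at least 5 members, the summed levels were 118 CPM (110.4 to 126) and 109.7 CPM (105 to 115). Taking out the barcodes with the most members lowers both sums by construction, the control more.

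To see which members differed outside such barcodes, each gene was summed over luminal barcodes with fewer than 5 of the other 39 members. Smc2 still had 23.9 and 3.24 CPM (196 and 52 UMIs), 7.39-fold lower (5.42 to 10.2). Top2a had 8.93 and 2.31 CPM, 3.87-fold lower (2.56 to 5.92), and Kif11 2.44 and 0.561 CPM from 19 and 9 UMIs. By contrast, Kif23 had 1.67 and 4.97 CPM, Anln 8.75 and 14.4 CPM and Cks2 22.9 and 33.6 CPM, ratios of 2.98 (1.65 to 5.83), 1.65 (1.26 to 2.19) and 1.47 (1.24 to 1.74). Smc4 was at 22.5 and 20.2 CPM, a ratio of 0.898 (0.747 to 1.08). Outside such barcodes, Smc2, Top2a and Kif11 were thus lower in the library labelled knockout, and Kif23, Anln and Cks2 higher. The members of this paragraph were named after their values were seen. The barcodes left out differ by gene, so these values do not add up to the near-equal sums given above. Leaving them out takes more from the control by construction, and the ratios of Kif23, Anln and Cks2 were lower over all luminal barcodes.

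Members differed in how far their RNA was limited to barcodes with many others. In control stromal barcodes, the share of a member's UMIs that lay in barcodes with at least 5 other members ranged from 19.1% for Smc4 and 21.7% for Cks2 to 97.0% for Nuf2 and 98.7% for Ccna2. Nusap1, Cenpa and Ckap2 were also low, at 28%, 30.4% and 33.0%, and Aurkb, Bub1 and Plk1 high, at 91.8%, 94.1% and 90.3%. Set beside the luminal ratios, which come from other barcodes, the 5 members with the lowest shares had ratios from 0.519 (Nusap1) to 1.14 (Cks2), and the 5 with the highest (Ccna2, Nuf2, Bub1, Aurkb and Plk1) from 0 (Aurkb and Nuf2) to 0.0700 (Bub1). Smc2 and Cdk1 had low shares, 39.0% and 45.4%, with luminal ratios of 0.111 and 0.0828, and Anln a share of 73.3% with a ratio of 1.04. The points share the library on the control side, and members with more UMIs are detected in more barcodes.

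**Figure D3:**
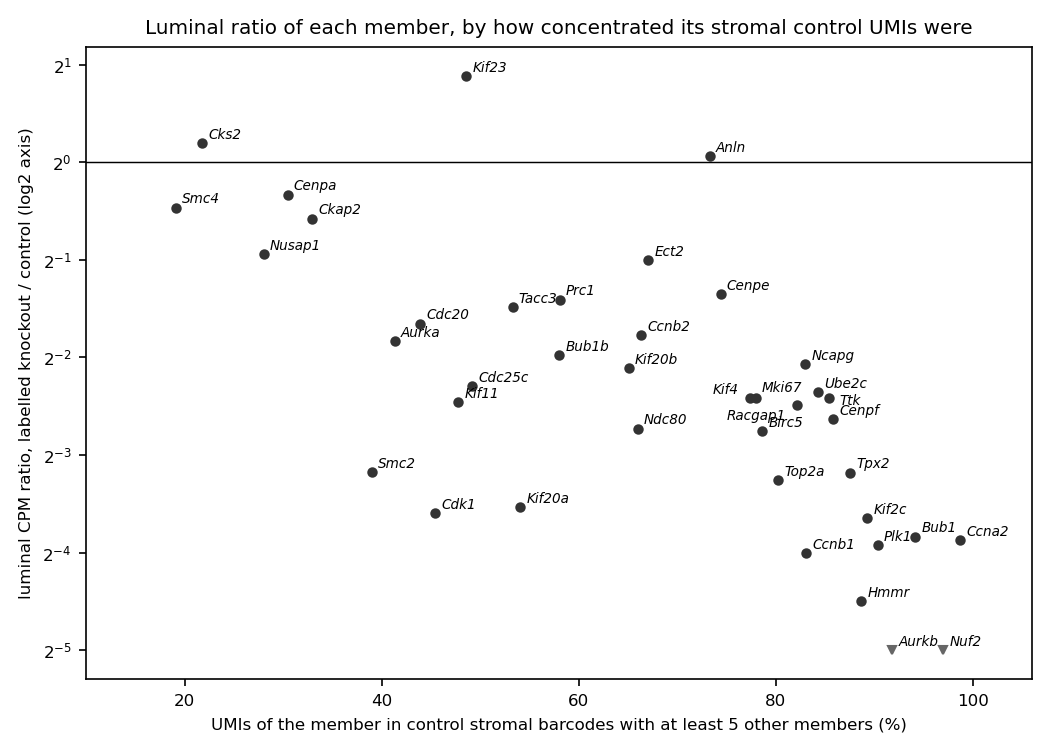
Luminal CPM ratio of each member, library labelled knockout over control (log2 axis), against the percent of its control stromal UMIs that lay in barcodes with at least 5 other members. Each point is 1 of the 40 members, and triangles mark Aurkb and Nuf2, with 0 luminal UMIs in the library labelled knockout, drawn at the lower edge. Cks2, Smc4, Cenpa, Ckap2 and Nusap1 lie at the upper left and Ccna2, Bub1, Plk1 and Nuf2 at the lower right, while Kif23 and Anln lie above and Smc2 and Cdk1 below the other points of similar share.

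In stroma 40 of 40 members had at least 20 UMIs, of which 18 were at least 2-fold lower in the library labelled knockout, 0 at least 2-fold higher and 22 between, against 12.9% of 14462 genes lower and 5.48% higher. The median log2 ratio was -0.85, and -0.05 over all genes measured. The interval lay below 1 for 15 members, against 21.1% of all genes, and above 1 for 1, Ccnb2, against 21.1%. The library labelled knockout gave few stromal UMIs of each gene, with a median depth of 3637 against 8889 UMIs per barcode. Thinned to 2000 UMIs, 21 members reached the minimum, 6 of them were at least 2-fold lower, against 9.6% of all genes, and the summed levels were 216 and 143 CPM. Thinned to 5000 UMIs, a setting added after the data were seen that keeps 188 of the 1049 barcodes labelled knockout, the summed levels were 223.6 and 250 CPM, a ratio of 1.12 (0.975 to 1.28). In that setting 6 of 36 members were at least 2-fold lower, against 14.8% of all genes. With the same barcodes and all their UMIs, also chosen after the data were seen, the sums were 258 and 239.5 CPM, a ratio of 0.930 (0.821 to 1.05), and 9 of 40 members were at least 2-fold lower, against 16.6% of all genes. The stromal difference of the sum was thus not distinguishable in deep barcodes. The cut kept 2932 of 3221 control barcodes, so it compares unlike parts of the 2 libraries. At least 5 members were found in 6 of the 188 barcodes labelled knockout that it kept, against 11 of all 1049. Thinned to 2000 UMIs, the ratio of the sums was 0.661 (0.578 to 0.754). Epithelial markers were higher in stromal barcodes of the library labelled knockout (10.4 and 55.1 CPM for 5 of 5 markers), and their part in the result was not tested.

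Chromosome structure genes had the lowest summed ratio of the role groups in stroma, 0.365, at 88.4 and 32.2 CPM. Top2a had 16.1 and 2.79 CPM (476 and 11 UMIs), 5.78-fold lower (3.20 to 11.6). Smc2 had 19.8 and 6.09 CPM, 3.25-fold lower (2.17 to 5.12), and Smc4 44.6 and 19.5 CPM, 2.28-fold lower (1.81 to 2.91). Kif4, a chromosome-bound motor gene, had 53 and 0 UMIs, at least 2.36-fold lower by the limit of 3 UMIs, and Kif11, the motor that separates spindle poles, had 111 and 3 UMIs. Cdk1 had 10.7 and 4.32 CPM, 2.49-fold lower (1.53 to 4.33), and Prc1 8.64 and 4.06 CPM, 2.13-fold lower (1.28 to 3.78). Anln, level in luminal barcodes, had 3.42 and 1.02 CPM from 101 and 4 UMIs, and Aurkb had 61 and 1 UMIs. Nusap1, Ube2c and Mki67 had ratios of 0.514 (0.260 to 0.920), 0.574 (0.328 to 0.940) and 0.564 (0.302 to 0.970). Bub1, Ncapg and Kif20b had 51 and 1 UMIs, 47 and 1 UMIs, and 103 and 6 UMIs, and were past 2-fold with intervals below 1. Ccna2, Cdc25c, Plk1, Aurka, Bub1b and Ndc80 were past 2-fold too, but their intervals included 1. Birc5, Cdc20, Ckap2, Racgap1, Nuf2, Ect2 and Cenpe had ratios from 0.548 (Cenpe) to 0.712 (Cdc20), with intervals that included 1.

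Other stromal members had ratios nearer to or above 1. Cks2 had 34.9 and 30.5 CPM (1030 and 120 UMIs), a ratio of 0.873 (0.716 to 1.06), and Cenpa 10.1 and 11.2 CPM, a ratio of 1.10 (0.784 to 1.52). Cenpf, Tpx2, Kif23, Ttk, Tacc3, Kif2c, Hmmr and Kif20a had ratios from 0.856 (Kif23) to 1.42 (Kif20a), with intervals that included 1. Ccnb2 had 2.91 CPM in control barcodes against 5.08 CPM in those labelled knockout (86 and 20 UMIs), a ratio of 1.74 (1.01 to 2.86), and Ccnb1 59 and 9 UMIs, a ratio of 1.14 (0.498 to 2.32). The 20 Ccnb2 UMIs labelled knockout came from 10 barcodes, and 13 of them lay in barcodes with at least 5 other members. Cyclin B genes, which act at entry into mitosis, thus stood above Top2a, Smc2 and Smc4 in their stromal ratios.

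Stromal barcodes with a UMI of at least 5 members numbered 127 of 3221 (3.94%, 3.30% to 4.67%) in the control and 11 of 1049 (1.05%, 0.525% to 1.87%) in the library labelled knockout. After thinning to 2000 UMIs the counts were 28 of 3195 (0.876%, 0.583% to 1.26%) and 7 of 940 (0.745%, 0.300% to 1.53%), so the shares were not distinguishable at this depth. S phase RNA was also counted in the 11 stromal barcodes labelled knockout and the 127 control ones. S phase genes, a list of 26 replication genes, summed to 4730 UMIs or 2873 CPM in the control barcodes and 16 UMIs or 315 CPM (179.8 to 511) in those labelled knockout, while the mitosis genes summed to 2334 and 4344 CPM. A UMI of at least 5 S phase genes was found in 117 of 127 and in 1 of 11. Their median depths were 12620 and 5039 UMIs. A shallower barcode needs a higher level of the mitosis genes to show 5 of them. By this construction the mitosis sums of the 2 sets cannot be compared. A shallower barcode also shows fewer S phase genes, so the counts of 117 of 127 and 1 of 11 cannot be compared either. The S phase sums describe only these barcodes, which were picked by the mitosis genes at unlike depths. In the 11 barcodes the stromal gate genes ranged from 23.0 to 59.3 per 10000 UMIs, with 0 of 6 leukocyte markers detected.

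Leukocyte barcodes, those of the remaining class led by Ptprc, Coro1a, Cd52, Tyrobp, Laptm5 and Cd74, held the highest level of these genes in both libraries, 2229.5 and 1775 CPM (177 and 212 barcodes). The ratio was 0.796 (0.735 to 0.862) from all UMIs and 0.986 (0.865 to 1.12) after thinning to 2000 UMIs. At least 5 members were found in 61 of 177 (34.5%, 27.5% to 42.0%) and 40 of 212 (18.9%, 13.8% to 24.8%), and after thinning in 44 of 166 (26.5%, 20% to 33.9%) and 30 of 99 (30.3%, 21.5% to 40.4%), with median depths of 5891 and 1848 UMIs before thinning, which left out 11 and 113 shallower barcodes. Top2a had 205 and 158 CPM, Mki67 138 and 122 CPM and Smc4 196 and 189 CPM, with intervals of the ratio that included 1. Cenpa had 148 and 245 CPM (167 and 113 UMIs), a ratio of 1.65 (1.29 to 2.11). Nusap1 and Cdk1 were lower, at 61.3 and 19.5 CPM and 41.7 and 13.0 CPM, ratios of 0.319 (0.140 to 0.641) and 0.312 (0.109 to 0.731). Over all barcodes outside the epithelial and stromal gates, 36 members had at least 20 UMIs and 14 of them were at least 2-fold lower, against 5.9% of 10414 genes, and 0 at least 2-fold higher, against 4.31%. Leukocytes made up 61 of the 266 control barcodes with at least 5 members (22.9%) and 40 of the 80 labelled knockout (50%), luminal barcodes 22.9% and 35%, and stromal barcodes 47.7% and 13.8%. These parts come from all UMIs, at unlike depths. The 28 luminal barcodes among those labelled knockout had a median of 23310.5 UMIs, against 9719 in the other luminal ones. After thinning to 2000 UMIs, the library labelled knockout kept 0 luminal, 7 stromal and 30 leukocyte barcodes with at least 5 members.

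The smaller groups of the remaining barcodes were lower too, by larger folds from few UMIs. Endothelial barcodes, 56 and 42, held 654 and 230.2 CPM of the list from 300 and 28 UMIs, 2.84-fold lower (1.93 to 4.35). In them 9 of 56 and 0 of 42 had at least 5 members, the 0 allowing a share of up to 7.14% by 3 counts (8.41% by the exact interval). Of the 300 control UMIs, 75 lay in 1 barcode, and the median depths were 5832 and 2176.5 UMIs. Smooth muscle and pericyte barcodes held 124 and 16 UMIs, 687 and 102 CPM, but 1 control barcode held 96 of the 124. The barcodes that no marker set named, 64 and 73, held 225 and 20 UMIs of the list, 5.47-fold lower (3.46 to 9.13), and 4 and 0 of them had at least 5 members. Of the 225 control UMIs, 87 lay in 1 barcode, and the median depths were 8030.5 and 2760 UMIs. With leukocytes at a ratio of 0.796, these classes brought the ratio of all remaining barcodes to 0.646. After thinning to 5000 UMIs, which left 20 of these barcodes labelled knockout, that ratio was 0.0503. In glands 2 of 40 members reached 20 UMIs, Smc4 with 30.8 and 34.1 CPM and Cks2 with 10.3 and 19.1 CPM, and neither was 2-fold changed, against 5.67% of 8360 genes lower and 4.51% higher. Smc2 had 10 and 0 UMIs there.

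Other cell cycle genes, from lists not trimmed by value but chosen with earlier results of these data known, gave the setting of these results. Of 26 S phase genes, 26 were measured in luminal barcodes and 23 were at least 2-fold lower, against 14.7% of all genes. Their summed level was 668 and 244 CPM. Those with the most UMIs over all barcodes, Slbp, Pcna and Dut, a histone mRNA binder, the replication clamp and a dUTPase, had ratios of 0.749, 0.495 and 0.326 in luminal barcodes. In stromal barcodes 23 of 26 were at least 2-fold lower too, against 12.9% of all genes, at 592 and 212 CPM, and 531 and 219 CPM after thinning. From a list of 50 further mitosis genes, 40 were measured in luminal barcodes. Of these, 27 were lower by 2-fold or more and 1 was higher, against 14.7% and 5.64% of all genes. In stromal barcodes 27 of 49 were lower, against 12.9%. The luminal interval lay above 1 for 3 of the 40, against 19.5% of all genes. They were Knstrn at 3.15 (2.26 to 4.48), Mad2l1 at 1.82 (1.46 to 2.30) and Tubb4b. The sum of this list hardly differed (816 and 735 CPM, luminal). Tubb4b, a tubulin gene also used outside division, was its most abundant member, with a luminal ratio of 1.55. Of 15 inhibitors and G1 cyclins, 5 were past 2-fold lower and 1 past 2-fold higher in luminal barcodes, against 14.7% and 5.64% of all genes. The inhibitor gene Cdkn1c was 8.75-fold lower (6.79 to 11.4) and the D cyclin gene Ccnd2 3.02-fold lower (2.66 to 3.43), whereas Ccng2 and the inhibitor gene Cdkn1a had ratios of 2.22 and 1.76. Ccnd1, the cyclin of G1 entry, had 159 and 126 CPM.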

How the data were processed

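Single cells of trypsin-digested uterus were run on the 10x droplet platform, per the labels' protocols. Per the file headers, the authors used Cell Ranger 7.0.1, and the deposited files give whole-number UMI counts for each gene and barcode. Seurat (no version) and the genome build mm39 were also listed, per the submitters' processing notes. Deposited totals were 44871170 UMIs in 4627 control barcodes and 23317904 UMIs in 3118 barcodes of the library labelled knockout, and 3 barcode sequences occurred in both.

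A barcode was kept with 500 or more genes and no more than 15% mitochondrial UMIs. Scrublet in scanpy 1.11.5 scored doublets, and the top-scoring 0.8% per 1000 barcodes were taken out (159 and 70), which left 4303 and 2881. Of those removed, 14 and 3 had a UMI of at least 5 members. Classes were gated as described in the report, and 26 and 9 barcodes in both gates were kept apart. Gene sums over a class were divided by that class's UMI total in the library (CPM). Ratios have exact conditional 95% intervals, levels exact Poisson ones and shares exact binomial (Clopper-Pearson) ones, from scipy 1.17.1. The ratio intervals were checked on simulated independent Poisson counts, which do not model UMIs gathered in few barcodes. A 0 was read as at most 3 UMIs where a fold is given, and the upper limit of a share of 0 is 3 counts of the total. With 1 library per group, a gene counted as changed at a 2-fold CPM ratio with at least 20 UMIs over both libraries. Genes sharing sequence with a near copy were not treated apart.

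The members, role groups, other lists and named genes were chosen with earlier results of these data known. The 3 members of each role group with the most UMIs over both libraries are described in full, and further members were named after their values were seen. Alternatives covered the filters, doublets, gates, thinning, scaling, means over barcodes, and the UMI and member minimums. Promoter sequences are from RefSeq, GRCm38.p6, so no coordinates are given in the build of the files. Protein sequences were not used here. A further marker is not reported here.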

Additional observations from a re-analysis of the deposited data

Results flagged for a closer look

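Ccnb2, which encodes the B2 cyclin that partners Cdk1, stood on opposite sides of 1 in the main tissue classes. Its ratio of the library labelled knockout over the control was 1.74 (1.01 to 2.86) in stromal barcodes, from 86 and 20 UMIs, and 0.294 (0.167 to 0.503) in luminal barcodes, from 42 and 22 UMIs. It was singled out because the counting interval lay wholly above 1 in the first class and wholly below 1 in the second. The 20 stromal UMIs labelled knockout came from few barcodes, mostly ones with many other members, as given above. The interval does not model such gathering, so its lower limit of 1.01 cannot be relied on to exclude 1. An interval wholly above 1 was found for 21.1% of all genes measured in stroma. The difference between the classes was not tested, since each class holds 1 library per genotype. No other of the 40 members met this condition over the luminal, glandular, stromal and remaining barcodes.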

How the results depend on the processing

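Of 107 recomputed values, 66 stayed within the counting interval of the reported value or, for counts, within 1.5 times of it. A further 37 moved beyond that, and 4 reversed. Reversal was counted only for values whose reported interval excluded no difference, and never for counts of members. The luminal results kept their direction under every alternative run. The luminal summed ratio of 0.418 became 0.447 when barcodes were thinned to 2000 UMIs and 0.494 when thinned to 5000 UMIs (chosen after seeing the data). It became 0.473 with means over barcodes and 0.453 with median-of-ratios scaling. Under that scaling the luminal median log2 ratio of all genes moved from -0.16 to -0.04. The luminal median log2 ratio of -2.35 became -1.06 and -1.39 at these thinnings, -1.85 with means over barcodes and -1.35 over members with at least 100 UMIs. The 25 luminal members at least 2-fold lower became 4 of 8, 12 of 18 and 7 of 13 measured when thinned to 2000 UMIs, thinned to 5000 UMIs or held to at least 100 UMIs, against 10.1%, 12.1% and 9.99% of all genes in the same settings. The luminal difference in the share of barcodes with at least 5 members, -7.72 percentage points, became -1.97 and -2.33 points when thinned, and -3.17 points for at least 10 members.

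The stromal results depended on the depth setting, and a cut at 5000 UMIs keeps unlike parts of the 2 libraries. Thinned to 5000 UMIs, with 188 barcodes left in the library labelled knockout, the summed ratio reversed to 1.12, the median log2 ratio to 0.30 and the share difference to 0.409 points (-1.23 to 3.86), and 6 of 36 members were at least 2-fold lower, against 14.8% of all genes. The same barcodes with all their UMIs, also chosen after seeing the data, gave 0.930 for the sum, a median reversed to 0.056, 9 of 40 members, against 16.6% of all genes, and -1.07 points. Thinned to 2000 UMIs they were 0.661 for the sum, 6 of 21 members, against 9.6% of all genes, and -0.132 points, against -2.89 points with all UMIs. Gates at 20 per 10000 UMIs gave 0.728, a median of -0.41 and 11 members, against 12.8% of all genes, and a minimum of 100 UMIs gave 8 of 23 members, against 7.48%. The stromal share differences for at least 3 and 10 members were -10.5 and -1.26 points.

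For the remaining barcodes the summed ratio of 0.646 became 0.705 with gates at 20 per 10000 UMIs, 0.764 and 0.0503 when thinned to 2000 and 5000 UMIs (the second with 20 barcodes labelled knockout), 0.0675 in those same barcodes with all their UMIs, and 0.722 with means over barcodes. Their share difference of -12.6 points became -5.65 points with the higher gates, -1.79 and -28.9 points when thinned, -32.8 points in barcodes with at least 5000 UMIs, and -22.2 points for at least 3 members. Where no construction is named, the cause was not tested. No paired analysis was possible because each genotype has 1 library.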

Other observations

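Other genes were high in the same barcodes as the members. Among genes with at least 100 UMIs in control barcodes with at least 5 members, a choice made after the data were seen, those with the highest lower bound of the ratio to the other control barcodes of the class were listed, 15 per class, as a description with no test, since the barcodes were picked by the mitosis genes. In luminal barcodes Pclaf, a partner of the replication clamp, had 75.2 CPM there and 1.93 CPM elsewhere, and Cdca8, the borealin subunit of the passenger complex, 64.4 and 2.18 CPM. The ribonucleotide reductase gene Rrm2 had 114 and 14.8 CPM. Genes with no known role in division were among them too: Spp1, which encodes osteopontin, had 972 and 157 CPM, the transporter gene Abcb1b 68.2 and 7.84 CPM, and the steroid-metabolizing enzyme gene Akr1c18 228 and 45.6 CPM. In stromal barcodes the leading genes were Cdca8, Pclaf, the formin gene Diaph3 and the thymidine kinase gene Tk1, with 83.8, 214, 198 and 88.7 CPM there and 1.08, 3.45, 4.70 and 2.01 CPM elsewhere. Spp1, Abcb1b and Akr1c18 were not among the 15 stromal genes. The lowest ratio of that list was 11.9 (Uhrf1), above their luminal ratios of 6.20, 8.71 and 5.01. Absence from the list thus does not tell whether they were also raised in such stromal barcodes.

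S phase genes accompanied the members to different extents by class and library. For each UMI of the mitosis genes in barcodes with at least 5 of them, control luminal barcodes held 1.39 UMIs of S phase genes and luminal barcodes labelled knockout 0.533. Leukocyte barcodes held 0.571 and 0.413, and stromal barcodes 1.23 and 0.0724, the last from 11 barcodes. The barcodes were chosen by the mitosis genes, at unlike depths, so these values describe them and compare no whole populations.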
